A study of Mus musculus with 12 samples.

Results

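The mouse Cyp2b genes encode cytochrome P450 enzymes of the 2B subfamily, and 5 of them (Cyp2b10, Cyp2b13, Cyp2b9, Cyp2b23 and Cyp2b19) were followed here through peak lists for acetylation of lysine 9 on histone H3 (H3K9ac), which is found at active promoters. The 5 genes are among 21911 protein-coding genes of the GENCODE M21 annotation of mm10. A peak was assigned to a gene when it overlapped the gene body or the 5 kb either side of its start. The genes were picked for the strain pattern at Cyp2b9 and Cyp2b13, that is, they were chosen by the same peaks that are described here, so the strain values at these genes are a description with no test. Livers of adult mice were studied by chromatin immunoprecipitation and sequencing, with 2 libraries of C57BL/6J (B6, the strain of the reference genome), 2 of MSM/Ms (MSM, inbred from wild mice of Japan), 1 of the F1 hybrid with a B6 mother (F1 BM, MSM father) and 1 of the reciprocal F1 hybrid (F1 MB, MSM mother and B6 father). All livers were fixed alike, and the labels give no other treatment. The parental libraries came from separate individuals, and the labels give neither the sex of the mice nor their age beyond adult. Each F1 cross had 1 library, so F1 values have no replicate error.

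Cytochrome P450 enzymes of the 2B subfamily oxidise drugs, steroids and other lipophilic compounds in the endoplasmic reticulum of hepatocytes. They take electrons from the reductase encoded by Por, and their haem comes from a pathway limited by Alas1. Transcription of Cyp2b10 is the classical response to phenobarbital, which acts through the constitutive androstane receptor CAR (Nr1i3) and its partner RXRα (Rxra). Cyp2b9 and Cyp2b13 are known in mouse liver as genes expressed more in females than in males, under the control of the pattern of growth hormone release. Cyp2b19 is known as an enzyme of the epidermis that acts on arachidonic acid.

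The 5 genes lie on chromosome 7 in a P450 cluster. Cyp2b10 (ENSMUSG00000030483.14) is at chr7:25897620-25926624, Cyp2b13 (ENSMUSG00000040583.8) at chr7:26061497-26096197 and Cyp2b9 (ENSMUSG00000040660.6) at chr7:26173411-26210661, all on the plus strand. Cyp2b23 (ENSMUSG00000040650.8) is at chr7:26665227-26686437 on the minus strand and Cyp2b19 (ENSMUSG00000066704.6) at chr7:26757142-26772630 on the plus strand. Cyp2b13 and Cyp2b9 are near-identical just upstream of their starts, and their promoters are shown because the peaks described below lie over them. These are the 250 bases before the RefSeq start in GRCm38.p6, at chr7:26061245-26061494 for Cyp2b13 and chr7:26173159-26173408 for Cyp2b9, both 5′ to 3′ on the plus strand, with the bases that differ in capitals:
Cyp2b13: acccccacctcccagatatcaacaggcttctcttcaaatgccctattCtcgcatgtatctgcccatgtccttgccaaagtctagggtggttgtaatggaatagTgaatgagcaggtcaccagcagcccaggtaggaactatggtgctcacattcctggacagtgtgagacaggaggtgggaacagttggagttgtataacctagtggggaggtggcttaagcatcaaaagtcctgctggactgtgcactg
Cyp2b9: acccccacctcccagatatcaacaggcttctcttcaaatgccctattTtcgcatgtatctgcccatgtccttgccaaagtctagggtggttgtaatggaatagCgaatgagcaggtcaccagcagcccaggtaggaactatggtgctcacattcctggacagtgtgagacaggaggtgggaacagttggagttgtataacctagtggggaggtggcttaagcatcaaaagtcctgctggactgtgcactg

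The stretches differed at 2 of 250 bases, C48T and T104C from Cyp2b13 to Cyp2b9, counted from 1 at the 5′ end of the printed sequence, which is an identity of 99.2%. Aligned over the same 250 bases, the other pairs among the 5 promoters had identities of 58.6% to 71%. The likeness of Cyp2b13 and Cyp2b9 was local. It was 96% over the 1 kb before the starts, 86% over the first kb of the genes and 77.3% in the fourth kb, while from 2 to 5 kb upstream it was 51.4% to 52.6%.

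The remaining promoters are shown over the last 90 bases before their RefSeq starts, where they carry 2 sequences that Cyp2b13 and Cyp2b9 lack in that stretch. Capitals mark matches to TTGCNNAA, a motif of the C/EBP factors that are abundant in hepatocytes, and to the TATA-like sequence ATAAAA. The stretches are at chr7:25897568-25897657 for Cyp2b10, chr7:26686431-26686520 for Cyp2b23 (minus strand) and chr7:26757052-26757141 for Cyp2b19:
Cyp2b10: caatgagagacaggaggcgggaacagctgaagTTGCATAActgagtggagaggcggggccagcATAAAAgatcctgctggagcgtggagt
Cyp2b23: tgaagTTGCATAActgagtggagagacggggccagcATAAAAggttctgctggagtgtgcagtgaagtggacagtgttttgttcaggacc
Cyp2b19: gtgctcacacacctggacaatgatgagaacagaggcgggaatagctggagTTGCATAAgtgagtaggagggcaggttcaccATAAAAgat

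The C/EBP match began at -58 in Cyp2b10, -85 in Cyp2b23 and -40 in Cyp2b19. In Cyp2b13 and Cyp2b9 the match nearest the start was at -180. All 5 promoters had a match to TTGCNNAA in 250 bases on either strand, against 9.56% of 32851 mouse promoters. ATAAAA was found in Cyp2b10, Cyp2b23 and Cyp2b19 and in 17% of all promoters, and it was not found in Cyp2b13 or Cyp2b9. The nuclear receptor half-site AGGTCA was found in all of the 5 except Cyp2b10, and in 14% of all promoters. Both TTCNNNGAA, the motif of the STAT factors that respond to growth hormone, and the repeat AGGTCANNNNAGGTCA were without a match in the 5 promoters, against 7.02% and 0.0152% of all promoters. Only exact matches in these 250 bases were sought. Sites further upstream or with other letters were not examined, so a missing match does not mean that a gene lacks such an element. TTGCNNAA and ATAAAA were chosen after the promoters had been seen. The start of Cyp2b10 in GENCODE lies 38 bp upstream of that in RefSeq, and for the other genes the sources differ by at most 7 bp.

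Of the 5 genes, 2 (Cyp2b9 and Cyp2b13) had a peak in both B6 and neither MSM library. This pattern was found at 199 of the 21911 protein-coding genes, 0.908%, and since the genes were chosen for it nothing is read from the difference. The share depended on the libraries, and was 6.57% without B6 replicate 2, 1.74% without MSM replicate 1, 1.83% without MSM replicate 2 and 1.90% with equal numbers of peaks per list. None of the 5 had a peak in both MSM and neither B6 library, a pattern of 0.456% of genes. Cyp2b10 had a peak in both B6 and 1 MSM library, at different places. Cyp2b23 and Cyp2b19 had no peak in any of the 6 libraries, like 47.8% of genes in the parental lists. By highest fold enrichment, Cyp2b9 and Cyp2b13 were higher in both B6 than in both MSM libraries, an order seen at 4.85% of genes, and none of the 5 had the opposite order, seen at 4.48%. Fold enrichment is the ratio of signal to background that the peak caller gave each peak, and as the lists give no read counts, library depth was not used here.

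**Figure D1:**
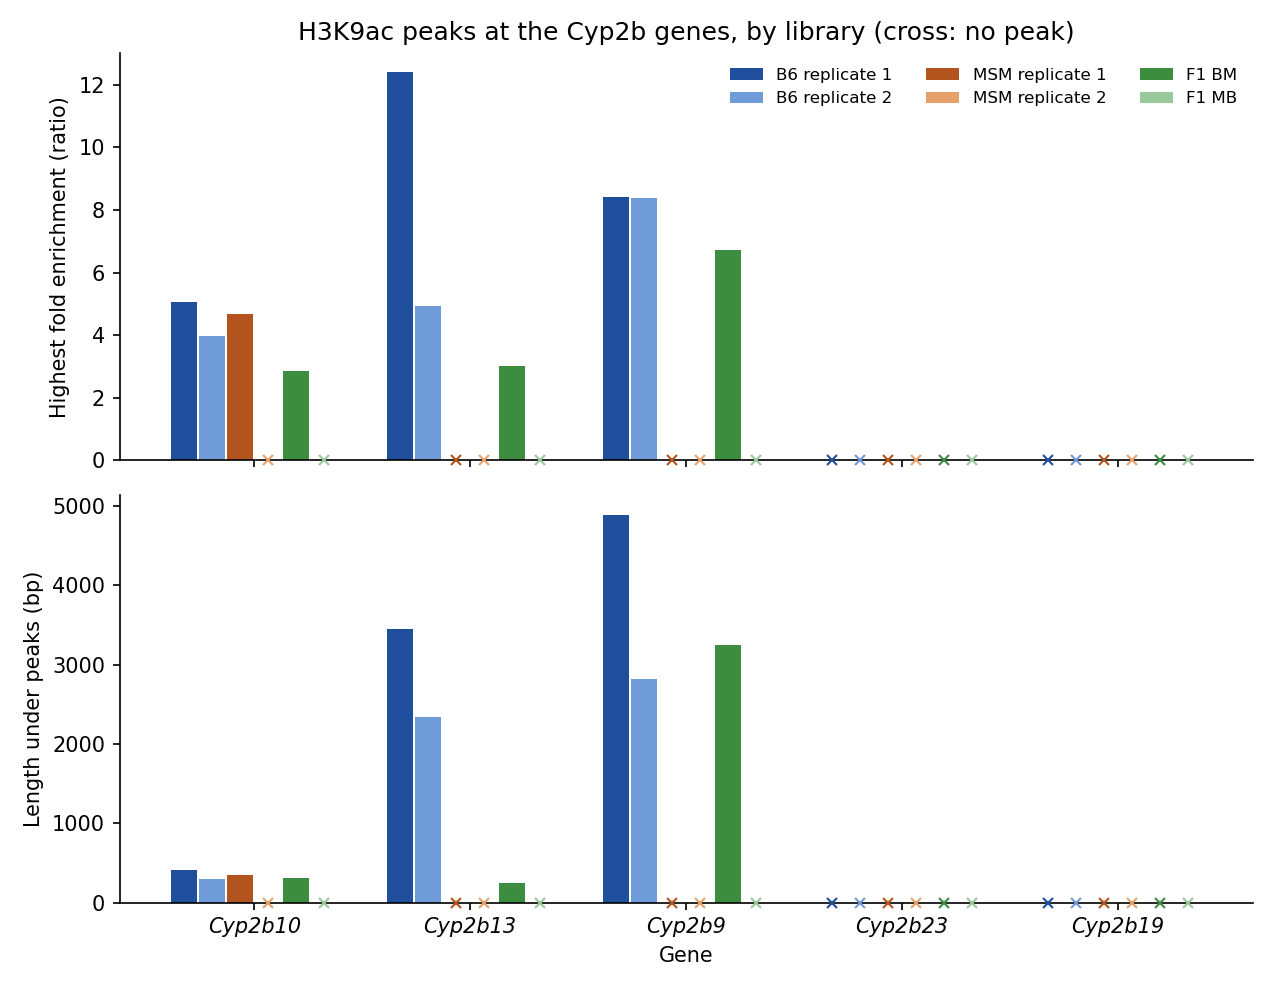
Highest fold enrichment (ratio, top) and length under H3K9ac peaks (bp, bottom) for each Cyp2b gene, with 1 bar per library and a cross where the list has no peak. Cyp2b13 and Cyp2b9 have bars in both B6 libraries and in F1 BM, the F1 BM bar at Cyp2b13 being a peak of 243 bp far inside the gene, and Cyp2b23 and Cyp2b19 have none.

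At Cyp2b9 the mark formed a broad peak over the start and first exon. In B6 replicate 1 it covered 3681 bp (chr7:26172870-26176550) with a fold of 8.41, and in B6 replicate 2 it covered 2538 bp (chr7:26173014-26175551) with a fold of 8.37. These widths exceeded those of 99.5% and 99.4% of the peaks in the respective lists. The summits lay 241 and 242 bp after the start. A weaker intronic peak followed in each, with folds of 4.67 and 3.14, but at different places. The summits of these peaks lay 4256 and 2553 bp after the start, and that of replicate 2 fell within the broad peak of replicate 1. Neither MSM library had a peak anywhere in the Cyp2b9 window. The length under peaks was 3853.5 ± 1467.2 bp in B6 (SD, n = 2) and 0 bp in both MSM libraries, the pattern for which the gene was chosen. F1 BM had a broad peak of 2664 bp over the start, with a fold of 6.71 and a summit 945 bp after it, and an intronic peak with a fold of 3.25. F1 MB had no peak at Cyp2b9. Among the 199 genes of the same parental pattern, 62.8% had a peak in F1 BM and 32.2% in F1 MB, so a missing peak in F1 MB was common among them.

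At Cyp2b13 the peak of B6 replicate 1 covered 3453 bp (chr7:26061058-26064510), with a fold of 12.4, the highest at any of the 5 genes, and it was wider than 99.4% of its list. B6 replicate 2 had a narrower peak over the start of 1202 bp (chr7:26061080-26062281), with a fold of 4.92, and a second one of 1140 bp in the intron, with a fold of 2.97. The B6 libraries thus differed more in fold at Cyp2b13 than at Cyp2b9. The length under peaks was 2897.5 ± 785.6 bp in B6 (SD, n = 2) and 0 bp in both MSM libraries. Unlike at Cyp2b9, F1 BM had no peak at the start of Cyp2b13. Its sole peak there was 243 bp long, with a fold of 3.01, in an intron 21107 bp after the start. F1 MB had no peak at Cyp2b13.

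Reads can be hard to place at this pair of genes. Of the 50-base windows within 1 kb of the start, 55.7% occurred once in the genome for Cyp2b13 and 57.9% for Cyp2b9, against 100% for Cyp2b10, Cyp2b23 and Cyp2b19. Of the windows that begin in the last 100 bases before either start, 0% occurred once. Among the 2-copy windows looked up near the Cyp2b13 start, 77 of 82 had their second copy at Cyp2b9, and near the Cyp2b9 start 75 of 76 had it at Cyp2b13. Within 250 bp of the peak summits at the starts, the share of windows found once was 61.3%, 61.5% and 71.5% at Cyp2b9 in B6 replicate 1, B6 replicate 2 and F1 BM, and 44.5% and 65.5% at Cyp2b13 in B6 replicates 1 and 2. Both genes therefore also hold windows of their own under the peaks. The windows were matched exactly and singly, whereas the libraries were sequenced as pairs of 50-base reads, and how far signal was shared between the copies was not tested.

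**Figure D2:**
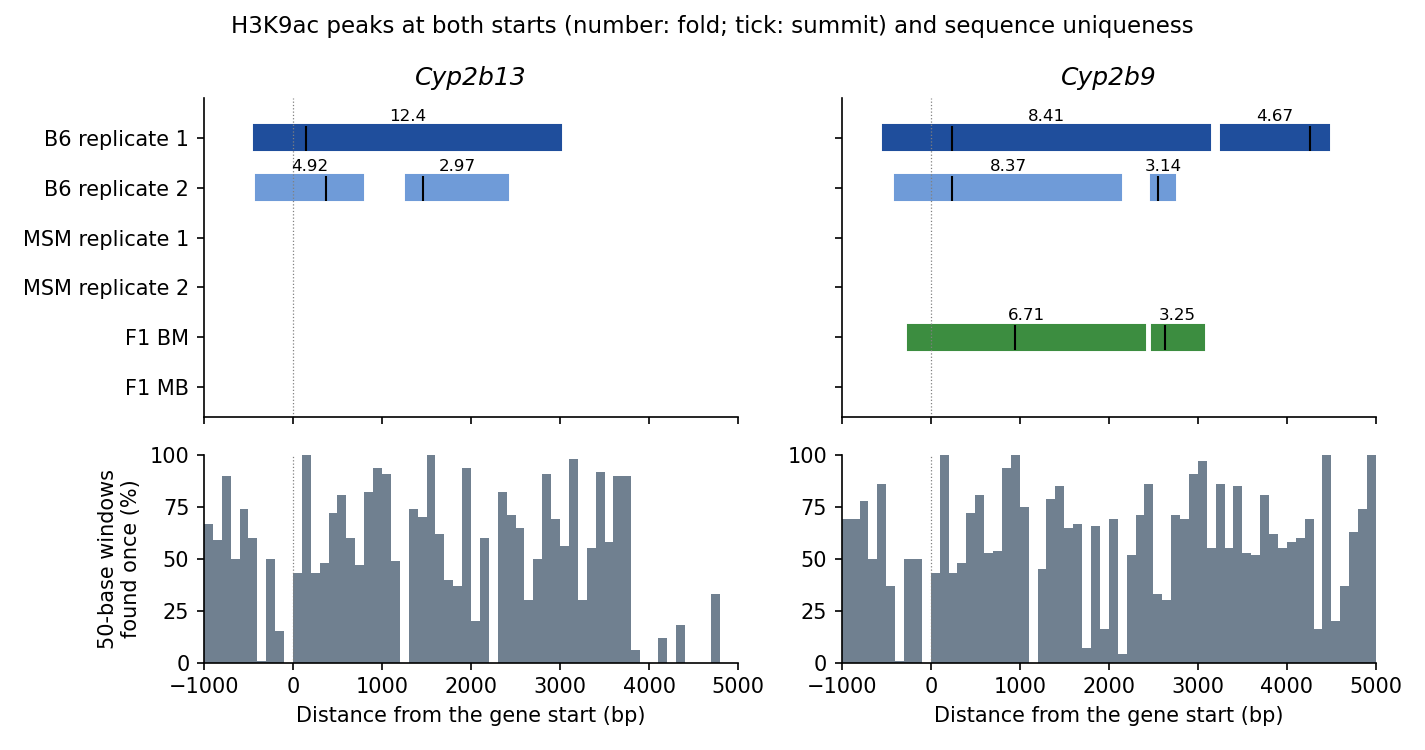
H3K9ac peaks at the starts of Cyp2b13 and Cyp2b9 by library (top; bars are peaks, numbers their fold enrichment, ticks their summits) and the percent of 50-base windows found once in the genome per 100 bp (bottom), against the distance from the gene start in bp. Peaks of both B6 libraries span both starts and a peak of F1 BM spans that of Cyp2b9, while the MSM libraries and F1 MB have none, and the share of windows found once is 0% just before both starts.

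Cyp2b10, the phenobarbital-responsive gene, had a narrow and weak peak just after its start in B6. The peak was 413 bp long (chr7:25897698-25898110) with a fold of 5.05 in B6 replicate 1, and 299 bp long with a fold of 3.98 in B6 replicate 2. F1 BM had it too, with a length of 308 bp and a fold of 2.84. The summits lay 243, 245 and 282 bp after the start. In fold these peaks stood above 47.3%, 33.7% and 25.9% of their lists. MSM replicate 1 had no peak at the start, and its sole peak was 349 bp long over an exon 19382 bp downstream (chr7:25916792-25917140), with a fold of 4.67. MSM replicate 2 and F1 MB had no peak. Peaks covered 356 ± 80.6 bp of the Cyp2b10 window in B6 libraries, against 174.5 ± 246.8 bp in those of MSM (SD, n = 2 each), and the difference of 181.5 bp was below the pooled SD of 183.6 bp. This difference turned to -25 bp with equal numbers of peaks, and it ran from 7 to 356 bp when 1 library was left out. When peaks were counted within 1 kb or 5 kb of the start and not in the rest of the gene, Cyp2b10 joined Cyp2b9 and Cyp2b13, and 3 of the 5 genes had a peak in both B6 and neither MSM library. In these windows the pattern was found at 0.844% (1 kb) and 0.867% (5 kb) of all genes.

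Over the 5 genes together, the peaks numbered 4 and 5 in B6, 1 and 0 in MSM, 4 in F1 BM and 0 in F1 MB. They covered 8757 and 5457 bp in B6, 349 and 0 bp in MSM, 3796 bp in F1 BM and none in F1 MB. The B6 libraries averaged 7107 ± 2333.5 bp, against 174.5 ± 246.8 bp for the MSM libraries (SD, n = 2 each). The difference of 6932.5 bp came mostly from Cyp2b9 (3853.5 bp) and Cyp2b13 (2897.5 bp), the genes chosen for it. The whole lists held 22968 and 11619 peaks in B6, 17310 and 17584 in MSM, 20173 in F1 BM and 13235 in F1 MB. Whether depth had a part in the missing peaks was not tested.

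Regions with a peak in both B6 and neither MSM library were also found outside the gene windows. The stretch of 318.0 kb from Cyp2b10 to Cyp2b9 held 12 and 9 peaks in B6, 1 and 0 in MSM, 7 in F1 BM and 1 in F1 MB. Merged over the parental lists, they formed 13 regions, of which 7 had a peak in both B6 and neither MSM library. Over the genome this was so for 3.29% of 25808 regions, and again nothing is read from it, since the stretch surrounds the chosen genes. The peak counts and the 7 regions include those in the windows of Cyp2b10, Cyp2b13 and Cyp2b9 themselves. The rest of the 7 lay over the pseudogenes named below or outside annotated genes. None of the 13 was found in both MSM and neither B6 library. The share of all regions with that opposite pattern was not counted, so nothing is read from its absence. Of the 7, F1 BM had 4 and F1 MB had 1. Among all genes of this pattern the shares were 62.8% and 32.2%, but these count genes over whole windows, not regions. The shares among all regions of this pattern are not given here, so nothing is read from the counts. The region shared by both crosses lay outside annotated genes at chr7:26120081-26120713, between Cyp2b13 and Cyp2b9. Its fold was 8.61 and 4.39 in B6, 2.7 in F1 BM and 3.64 in F1 MB. Other regions overlapped Cyp2b27-ps and Cyp2b26-ps, pseudogenes of the family. The region at chr7:26020209-26020781, over Cyp2b27-ps, had folds of 5.01 and 3.92 in B6 and 3.67 in F1 BM. At chr7:26138968-26139488, over Cyp2b26-ps, the folds were 3.9 and 2.91 in B6. The peaks over the pseudogenes lie in sequence that is largely present more than once, since 0% to 32.1% of their 50-base windows were found once. All 2-copy windows looked up had the second copy in the other pseudogene, so these peaks cannot be assigned to one of them with certainty. Around the start of Cyp2b13, the MSM libraries had no peak over 387.0 and 549.4 kb and F1 MB over 365.0 kb, while in F1 BM the gap was 62 kb. How often gaps of such lengths occur elsewhere in these lists was not examined, so nothing is read from them.

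**Figure D3:**
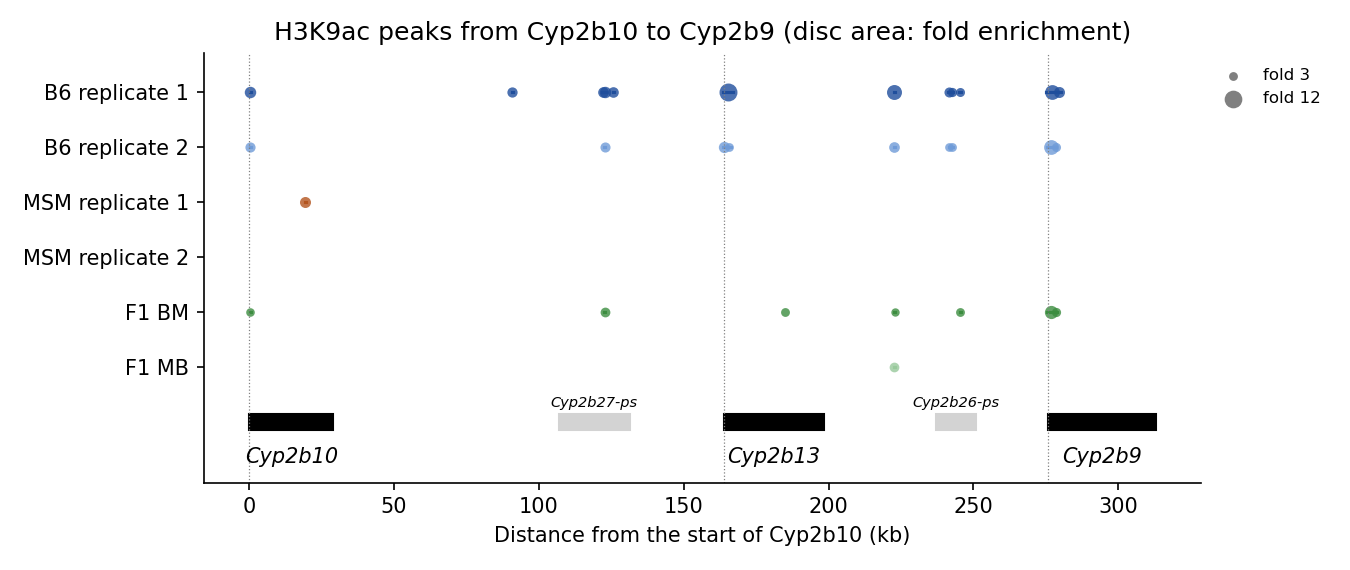
H3K9ac peaks of each library from Cyp2b10 to Cyp2b9, against the distance from the start of Cyp2b10 in kb, with the disc area giving fold enrichment, black boxes the Cyp2b genes and grey boxes the pseudogenes. The B6 libraries have 12 and 9 peaks and F1 BM has 7, while MSM replicate 1 and F1 MB have 1 each and MSM replicate 2 has none.

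Among 8 other Cyp2 genes listed from the cluster, 2 (Cyp2a4 and Cyp2a5) had higher folds in both MSM libraries, 1 (Cyp2a22) had higher folds in both B6 libraries, and 5 overlapped or had no peak, where 4.48% and 4.85% of all genes had these orders. Cyp2a4, a steroid hydroxylase expressed more in females and lying between Cyp2b9 and Cyp2b23, had its folds in the opposite order, 14.3 and 11.4 in MSM against 4.74 and no peak in B6, with 5.34 in F1 BM and 7.11 in F1 MB. Cyp2a5, the coumarin hydroxylase beyond Cyp2b19, had a peak in all 6 libraries, with folds of 5.92 and 3.93 in B6, 8.26 and 7.46 in MSM, 9.88 in F1 BM and 5.94 in F1 MB. How well reads can be placed at Cyp2a4 and Cyp2a5 was not examined. Cyp2a22 had 3.95 and 4.04 in B6 and 3.49 in MSM replicate 2, with no peak in MSM replicate 1 or the F1 libraries. Around Cyp2b23, the receptor gene Vmn1r185 and the gene Nlrp9a had no peak in any library. On the other side, within 500 kb of Cyp2b10, Ceacam1 and Ceacam2 were named after their values were seen. Ceacam1 had folds of 17.4 and 11 in B6 and no peak in MSM (0.908% of all genes). Ceacam2 had the opposite pattern, with 4.62 and 5.78 in MSM and no peak in B6 (0.456%).

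The absence of a peak in MSM has a limit set by the mapping. MSM reads were mapped to the B6 sequence, so a lack of H3K9ac in MSM, a missing or changed copy of the sequence and reads lost to mismatches cannot be told apart from the peak lists alone. The MSM input libraries were not analysed here, so these were not tested. In F1 mice the alleles were not separated, so the strain origin of the F1 BM peaks was not determined.

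Because Cyp2b9 and Cyp2b13 are known as female-predominant genes, peaks at other sex-related genes were read in the same libraries. The Y-linked genes Ddx3y, Eif2s3y, Kdm5d and Uty had no peak in any library, and Xist, which is transcribed from the inactive X chromosome of females, had a peak in all 6, with folds of 4.2 to 10. No library thus stood apart from the others in these genes. Over all genes, 30.6% had a peak in all parental libraries and 47.8% in none. A peak in both MSM and neither B6 library was found at 0.456%, and one in both B6 and neither MSM library at 0.908%. Higher folds in both MSM libraries were found at 4.48% of all genes, and in both B6 libraries at 4.85%. Of 14 other genes known as female-biased in liver, 6 had a peak in all parental libraries, 1 in none, and 0 in both libraries of 1 strain and neither of the other. Of 14 male-biased genes, 3 had a peak in all parental libraries, 5 in none, and 2 in both MSM and neither B6 library. In each of these lists, 5 of 14 genes had higher folds in both MSM libraries and 0 in both B6 libraries. The genes with a peak in both MSM and neither B6 library were C6, a complement component, with folds of 8.47 and 6.53 in MSM, and Susd4, a complement regulator, with 7.4 and 7.16. The part of sex in the strain pattern of Cyp2b9 and Cyp2b13 was not tested.

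The genes listed as regulators of CAR and the pregnane X receptor, which include the receptors themselves, co-factors, chaperones and signalling proteins, carried the mark in both strains. All 10 had a peak in all parental libraries, against 30.6% of all genes. Nr1i3, which encodes CAR, had folds of 15.7 and 7.86 in B6, 15.2 and 11.8 in MSM, 8.81 in F1 BM and 12.4 in F1 MB, so the strains overlapped. Rxra had 24.2 and 9.33 in B6 and 22.1 and 15.5 in MSM, again with overlap. Of the 10 genes, 8 had overlapping folds, 1 was higher in both MSM libraries (4.48% of all genes) and 1 in both B6 libraries (4.85%). Nr1i2, which encodes the pregnane X receptor, was higher in both MSM libraries, with 12 and 16.3 against 11.6 and 8.87 in B6. Hsp90ab1, a chaperone that holds CAR in the cytoplasm, was higher in both B6 libraries, with 15.7 and 12.6 against 11.4 and 12.

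All 4 genes of the enzymatic partners (Por, Cyb5a, Cyb5r3 and Alas1) also had a peak in all parental libraries. Por had folds of 17.9 and 7.7 in B6 and 12.7 and 17.3 in MSM. Alas1, which limits haem synthesis, was higher in both B6 libraries, with 11.8 and 13.2 against 8.04 and 11.7. Of 19 other genes known as targets of CAR or the pregnane X receptor, 14 had a peak in all parental libraries (30.6% of all genes) and 2 (Cyp2c55 and Akr1b7) had none in any (47.8%). Folds were higher in both B6 libraries at 3 of the 19 (4.85% of all genes), namely Ugt1a1, Gstm1 and Ces2a, and in both MSM libraries at 4 (4.48%), namely Cyp2a5, Abcc2, Aldh1a1 and Aldh1a7. Ces2a, a carboxylesterase, was the only target with a peak in both B6 and neither MSM library (0.908% of all genes), with folds of 8.05 and 3.56 in B6, 2.48 in F1 BM and 4.57 in F1 MB. Aldh1a7, an aldehyde dehydrogenase, was the only one with the opposite pattern (0.456%), with 6.96 and 8.61 in MSM and 2.72 in F1 BM. Gadd45b had a peak in 1 library of each strain. Cyp3a11, the main target of the pregnane X receptor, had overlapping folds, 7 and 5.94 in B6 and 6.13 and 7.63 in MSM.

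**Figure D4:**
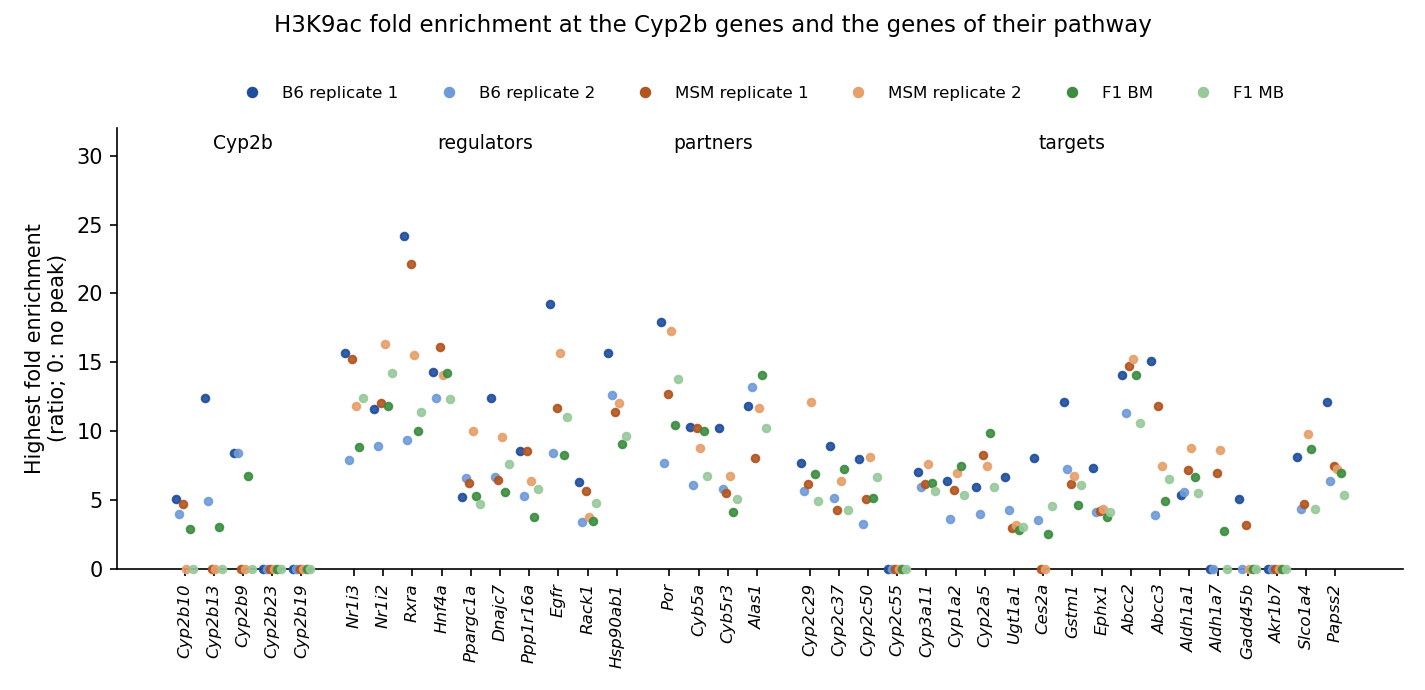
Highest fold enrichment (ratio) in each library at the 5 Cyp2b genes, 10 regulators, 4 enzymatic partners and 19 other targets of CAR or the pregnane X receptor, with 0 where a list has no peak. All regulators and partners have a peak in every library, whereas Cyp2b13 and Cyp2b9 have none in MSM or F1 MB.

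The tissue label fitted the markers of hepatocytes. All 8 hepatocyte markers, among them Alb and Hnf4a, had a peak in every library, where 30.6% of all genes had one in all parental libraries and 47.8% in none. Of 5 Kupffer cell markers, Csf1r had a peak in B6 replicate 1 and the others had none, and of 4 stellate cell markers, Dcn had a peak in F1 BM. Of 4 cholangiocyte markers, Sox9 had a peak in B6 replicate 1. All 4 endothelial markers had a peak in B6 replicate 1 and in F1 BM, 3 and 4 had one in MSM, 2 in F1 MB and none in B6 replicate 2. Among lymphocyte and keratinocyte markers, Ptprc and Lor had a peak in B6 replicate 1. The part of other cell types in the values at the Cyp2b genes was not tested.

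The genes whose folds across the 6 libraries were most like those of Cyp2b9 were Ctps, Pla1a and Uaca, by Pearson's r of log2 fold, with 1 for no peak, over 11578 genes that varied. The r values were 1.000, 1.000 and 0.998. Cyp2b13 had an r of 0.924 and was the 70th gene in this order, and Cyp2b10 had an r of 0.626. The correlation rests on 6 values, of which 3 are libraries without a peak for Cyp2b9, and it is a description of pattern.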

How the data were processed

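The authors carried out H3K9ac immunoprecipitation on formaldehyde-fixed adult livers and sequenced 50-base read pairs. Per the labels the submitters' processing notes list Trim Galore, HISAT2, SAMtools and MACS2 and the builds mm10 and GRCm38, whereas the methods of the study name Bowtie 2 for mapping. Versions and the use of the input as a control are not given in the sources used here. The 6 deposited peak lists held, for each peak, the authors' fold enrichment (a ratio), its −log10 p-value and its −log10 q-value. A deposited score was not used. Lists were called per library, held 11619 to 22968 peaks over 6.28 to 16 Mb, and had lowest −log10 q values of 1.30 to 1.35. The 6 input libraries were not analysed here.

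Peaks were assigned to genes by an overlap of at least 1 bp with Python 3.11.15, numpy 2.4.6 and pandas 2.3.3. Promoters were aligned with Biopython 1.88, and figures were drawn with matplotlib 3.10.9. Gene windows came from GENCODE M21, and promoter sequences from RefSeq (GRCm38.p6), in which all 5 genes matched. The overlap functions were tested on simulated data. An exact permutation test over 2 against 2 libraries cannot give a two-sided p below 0.333, so strain means are given with their SD and no test. The members and the gene lists were chosen with earlier results of these data known. Named beyond the 5 members were genes of fixed lists (regulators, partners and targets of the pathway, sex-chromosomal genes, sex-biased genes with a peak in 1 strain only, cell markers), protein-coding genes starting within 500 kb of a member start, and the 3 genes most like Cyp2b9. The pseudogenes Cyp2b27-ps and Cyp2b26-ps were also named, because regions between Cyp2b10 and Cyp2b9 overlapped them. Hsp90ab1, Alas1, Rxra, Cyp3a11 and the other single list members were named after their values were seen. Alternatives covered stricter q-values, equal numbers or lengths of peaks, other overlap rules, other windows and leaving out each parental library.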

Additional observations from a re-analysis of the deposited data

How the results depend on the processing

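Under every alternative run, Cyp2b9 and Cyp2b13 had a peak in both B6 and neither MSM library (in the libraries kept), and none of the 5 genes had the opposite pattern. Each alternative removed peaks, narrowed the windows or left out a library. No MSM peak could therefore be added at Cyp2b9 and Cyp2b13, which were chosen for the pattern, and the opposite pattern could not arise there. Only a loss of their B6 peaks could have been seen. The alternatives were a −log10 q of at least 2 or 5, the 11619 strongest peaks of each list, the strongest peaks up to 6.28 Mb, the summit or the larger part of a peak inside the window, windows of 1 or 5 kb around the start, and leaving out 1 parental library. The count became 3, with Cyp2b10, in both windows around the start and without MSM replicate 1. The share of all genes with this pattern, 0.908%, rose to 1.90% with equal numbers of peaks, and it ran from 0.931% to 6.57% when 1 library was left out, the highest value being without B6 replicate 2. It was 1.74% without MSM replicate 1 and 1.83% without MSM replicate 2. The length under peaks over the 5 genes, B6 minus MSM, was 3147 bp in the window of 1 kb, against 6932.5 bp, as that window holds less of each peak. It ran from 5282.5 to 8582.5 bp when 1 library was left out. At Cyp2b10 the difference in highest fold, 1.68 with 1 for no peak, became -0.343 with equal numbers of peaks, and it ran from -0.156 (without MSM replicate 2) to 3.52 (without MSM replicate 1) when 1 library was left out, and the difference in length, 181.5 bp, became -25 bp with equal numbers of peaks and ran from 7 bp (without MSM replicate 2) to 356 bp (without MSM replicate 1). At Cyp2b13 the difference in highest fold, 7.66, ran from 3.92 without B6 replicate 1 to 11.4 without B6 replicate 2. No paired analysis was possible because the lists were compared without a test and the replicate numbers of B6 and MSM name separate mice. Depth was not used here, so a missing peak cannot be told from one too weak to be called.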
